A study of Homo sapiens with 27 samples.

Results

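The 58 genes described here carry out or control DNA replication in S phase. They were taken by gene name, by a rule that uses no measured value, and all 58 were found among the 58233 genes of each RNA table. By function, 11 of them license origins, 6 activate the helicase, 21 work at the fork, 4 supply nucleotides, 7 assemble chromatin behind the fork, 3 process Okazaki fragments or repair DNA, and 6 control entry into and passage through S phase. All of them were above 2 CPM (counts per 1e6, taken without the mitochondrially encoded genes) in each of the 3 RNA libraries made without an inhibitor.

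Before S phase, the origin recognition complex with CDC6 and CDT1 loads the MCM helicase onto DNA, a step called licensing, and geminin (GMNN) blocks CDT1 once replication has begun. CDC45 and the GINS complex then switch the helicase on, polymerase alpha with primase starts each strand, and polymerases delta and epsilon extend the strands on the PCNA clamp, which the RFC complex loads. Cyclin E and the activator E2F factors drive cells into S phase, and many of the genes below are textbook E2F targets in dividing cells. The histone variant H2A.Z flanks the starts of active genes, and its acetylated form (acH2A.Z) is a mark of active promoters that Tip60, the acetyltransferase encoded by KAT5, can place.

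The cells were HL-60, an established human promyelocytic leukaemia line, with 1 library in each group. Untreated cells gave 1 library of total RNA and 1 of nascent RNA, which is newly made RNA captured by click chemistry. A further 3 nascent libraries followed treatment with DMSO as vehicle, with DRB at 100 µM, or with actinomycin D (ActD) at 0.8 µM. DRB inhibits the kinase that releases RNA polymerase II into elongation, and ActD intercalates into DNA and blocks transcription. Peak lists of chromatin immunoprecipitation (ChIP) with antibodies to H2A.Z and to acH2A.Z covered DMSO, DRB and ActD, and also 2 transfections, labelled siMyc (small interfering RNA to MYC) and siNTC (its non-targeting control). Lists of RNA immunoprecipitation (RIP) with H2A.Z, acH2A.Z and Tip60 antibodies came from untreated cells. The sources used here do not say how long each agent was applied, and no RNA library of the siMyc or siNTC cells was used, so the knockdown itself was not checked.

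With 1 library per group, a ratio compares 2 libraries and not 2 conditions, and no p-value was computed. Each interval is an exact 95% binomial one on the ratio of the 2 counts. They cover counting error only, and they carry no pseudocount, so for a gene with few counts the log2 ratio, taken after adding 1 CPM, can lie outside its interval. The 5 RNA libraries held 4807213 to 25026691 counts without mitochondrially encoded genes, whose share was 0.560% in untreated nascent RNA, 45.9% with DMSO, 66.5% with DRB and 56.9% with ActD. Of 8 promyelocyte markers, 7 were above 1 CPM in every RNA library, with summed levels of 1315 to 3867 CPM, while ELANE was at 0 in 4 of the 5. Erythroid, lymphoid, and epithelial and fibroblast markers each summed to at most 2.88 CPM in any library. In bulk RNA, fewer cells in S phase and less RNA per cell cannot be told apart.

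Under DMSO an acH2A.Z peak lay within 1 kb of 49 of the 50 listed starts. Promoters are shown for 4 of these genes, chosen by log2 ratio at the ends of the ranges described below. They are POLD1 (the gene with the highest ratio under DRB), POLA2 (the lowest under DRB among the 50 genes with a listed start), CDT1 (the highest under ActD) and DTL (the lowest under ActD). Each sequence is the 250 bases before the gene start, on the plus strand, from RefSeq on GRCh38.p14, with matches to the searched words in capitals. RPA2, RPA3, GINS4, MCM4, MCM5, CCNE2, E2F8 and POLD3 have no listed start. The POLD1 sequence lies at chr19:50384073-50384322, POLA2 at chr11:65261712-65261961, CDT1 at chr16:88803539-88803788 and DTL at chr1:212035498-212035747.
POLD1: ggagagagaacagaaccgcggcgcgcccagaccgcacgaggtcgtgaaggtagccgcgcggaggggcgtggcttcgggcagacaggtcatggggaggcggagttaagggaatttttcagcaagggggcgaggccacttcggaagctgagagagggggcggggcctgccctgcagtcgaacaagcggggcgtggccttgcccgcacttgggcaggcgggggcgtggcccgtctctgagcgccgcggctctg
POLA2: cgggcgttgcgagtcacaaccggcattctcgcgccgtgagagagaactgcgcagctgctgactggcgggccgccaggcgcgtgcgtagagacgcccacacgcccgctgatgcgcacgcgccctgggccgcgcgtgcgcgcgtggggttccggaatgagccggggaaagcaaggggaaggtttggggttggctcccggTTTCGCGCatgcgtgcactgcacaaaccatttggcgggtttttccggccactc
CDT1: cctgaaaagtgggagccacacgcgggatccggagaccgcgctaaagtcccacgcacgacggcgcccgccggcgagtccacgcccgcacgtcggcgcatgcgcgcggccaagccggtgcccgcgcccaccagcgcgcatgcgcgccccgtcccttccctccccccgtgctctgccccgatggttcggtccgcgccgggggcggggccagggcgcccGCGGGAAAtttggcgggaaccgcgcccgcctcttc
DTL: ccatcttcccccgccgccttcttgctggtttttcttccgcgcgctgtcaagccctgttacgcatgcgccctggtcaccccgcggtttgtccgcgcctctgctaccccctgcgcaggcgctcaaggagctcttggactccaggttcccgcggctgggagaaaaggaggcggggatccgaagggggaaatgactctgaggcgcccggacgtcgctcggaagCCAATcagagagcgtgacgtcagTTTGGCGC

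The words searched, on both strands, were the E2F words TTTCCCGC, TTTCGCGC, TTTGCCGC and TTTGGCGC, the words TTTGAA and TTCGAA of the cell cycle homology region, and CCAAT. POLA2 holds TTTCGCGC starting 53 bases before the gene start, CDT1 holds TTTCCCGC on the minus strand 35 bases before it, and DTL holds TTTGGCGC 8 bases and CCAAT 31 bases before it. POLD1 holds none of the words in this window. Of the 50 genes with a listed start, 16 (32%) held an E2F word, against 4.69% of 8337 expressed protein-coding genes and 3.72% of 15843 protein-coding promoters. CCAAT was found in 28 of 50 (56%) against 35.6% of expressed genes, and TTTGAA or TTCGAA in 3 of 50 (6%) against 9.69%. MCM6, a helicase subunit, held 4 E2F words, and MCM7 and E2F1 held 2 each. The GC share of these promoters had a median of 66.8%, near the 64.8% of expressed genes. A match is a description of the letters and not a bound site. The median log2 ratio under DRB was -0.76 for the 16 genes with an E2F word and -0.96 for the 34 without, and under ActD it was -0.67 and -0.63.

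In untreated cells the 58 genes together took 0.373% of total RNA counts and 0.302% of nascent counts. Per kilobase of effective transcript length, the highest in total RNA was MCM4, a helicase subunit, at 375 CPM per kb, and the lowest was GINS2, a helicase partner, at 0.949. In nascent RNA the order began with TYMS, thymidylate synthase, at 198 CPM per kb and MCM4 at 195, and GINS2 was again lowest at 2.4. By median level per kb in total RNA, the nucleotide supply genes stood highest at 108 CPM per kb, then the chromatin assembly genes at 60.6, and the S-phase control genes lowest at 9.05. The effective length of a gene differs between libraries, which also moves values per kb.

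Nascent and total RNA of untreated cells differed little for these genes. Of 58, 1 was higher at 2-fold in nascent RNA (9.49% of the 13968 genes tested) and 5 were lower (17.8%), with a median log2 ratio of -0.25 beside -0.34 over all genes tested. GINS2 was the higher gene, with 30 counts in total RNA and 147 in nascent RNA, that is 2.38 and 5.87 CPM and a log2 ratio of 1.02 (interval 0.73 to 1.92). POLE2, the second subunit of polymerase epsilon, was furthest the other way, with 21.4 CPM in total and 6.47 CPM in nascent RNA and a log2 ratio of -1.59 (interval -2.02 to -1.44). The other 4 were EXO1, a 5′ exonuclease, at -1.33, TK1, thymidine kinase, at -1.15, MCM10, an origin firing factor, at -1.09 and RPA1, a single-strand binding subunit, at -1.07. None of the 11 licensing genes passed 2-fold. What the capture step itself contributes cannot be told apart from the rest of the 2 preparations.

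The 2 nascent libraries made without an inhibitor differed far more. Between DMSO and untreated nascent RNA, 40 of 58 genes were higher under DMSO at 2-fold (46.2% of 14252 genes tested) and 1 was lower (14.7%). The median log2 ratio was 1.86 for these genes and 0.87 for all genes tested, a gap of 0.99. GMNN stood at 6.87 CPM untreated and 114 CPM under DMSO, a log2 ratio of 3.87 (interval 3.82 to 4.30). CLSPN, claspin, the checkpoint adaptor at the fork, stood at 48.9 CPM untreated and 629 CPM under DMSO, a log2 ratio of 3.66 (interval 3.59 to 3.78). RRM1, the large subunit of ribonucleotide reductase, followed at 3.49 and E2F8, a repressor of the E2F family, at 3.32. POLD1, the catalytic subunit of polymerase delta, was the lower gene, at 70.1 CPM untreated and 33.3 CPM under DMSO, a log2 ratio of -1.05 (interval -1.27 to -0.88). The RNA of the signal recognition particle, RN7SL1, took 26.7% of all untreated nascent counts and mitochondrial RNA 45.9% of all DMSO counts. With mitochondrial RNA, ribosomal RNA and RNA polymerase III transcripts such as RN7SL1 left out of the totals, 23 genes were higher and 6 lower, at a median of 0.77 beside -0.25 over all genes. Of all 15146 genes tested with these totals, 2977 were higher and 4896 lower. The vehicle and any other difference between the 2 libraries cannot be told apart.

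**Figure D1:**
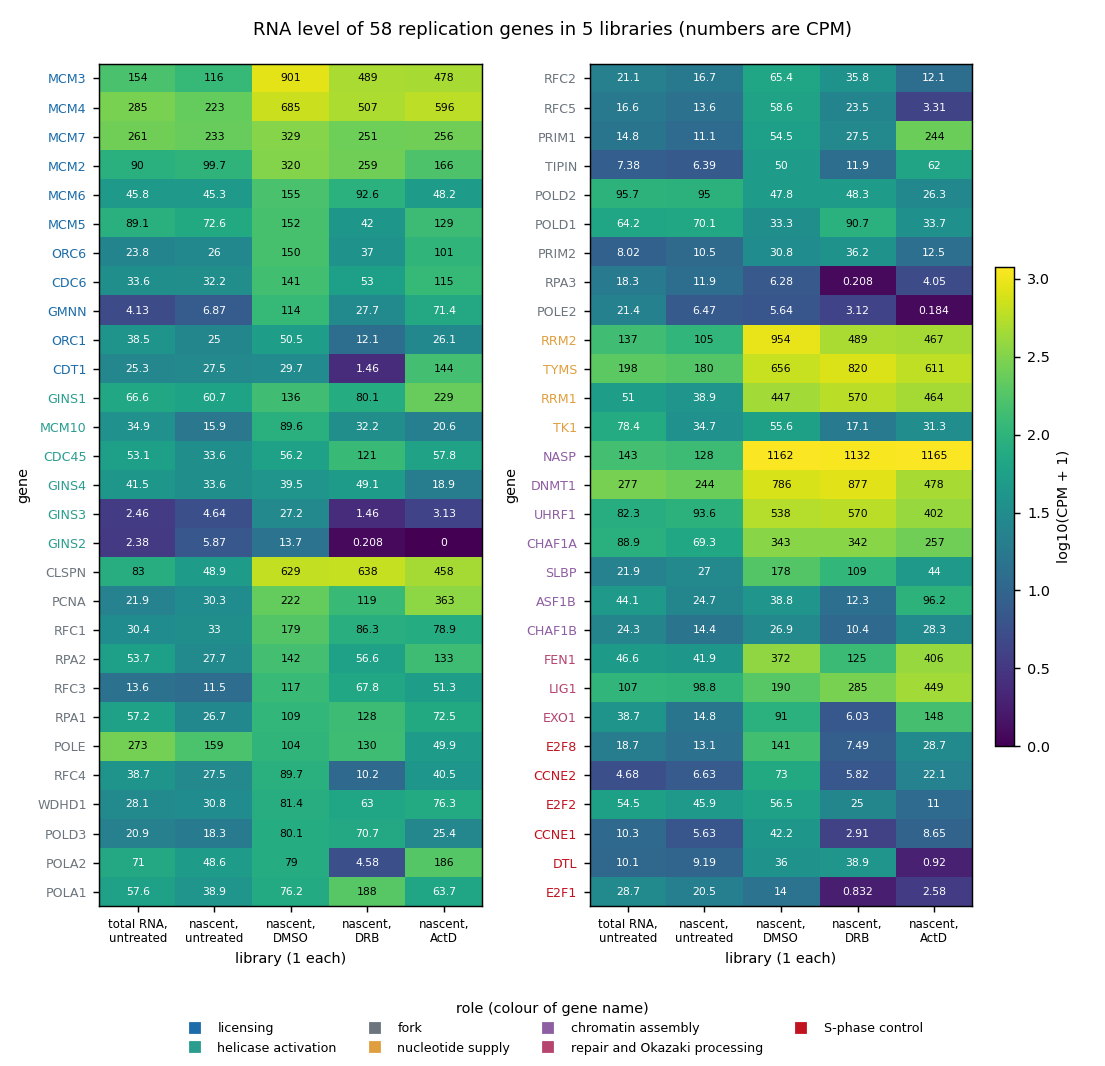
RNA level of each of the 58 genes (rows, gene names coloured by role) in 5 libraries (columns), as CPM without mitochondrially encoded genes; colour gives log10 of CPM + 1, from 0 in dark to high in yellow. CDT1 goes from 1.46 CPM under DRB to 144 under ActD, and 40 of the 58 genes are at least 2-fold higher under DMSO than in untreated nascent RNA.

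Under DRB, nascent RNA of most S-phase control genes and of the licensing factor CDT1 was far lower than under DMSO, while the median of the 7 chromatin assembly genes was -0.04 on the log2 scale. Of the 58 genes, 26 were lower at 2-fold (47.0% of the 12919 genes tested) and 3 were higher (15.6%). The median log2 ratio was -0.88, beside -0.83 over all genes tested, so as a list these genes lay close to the background. Under ActD, 22 of 58 were lower at 2-fold (50.7% of 12788 genes tested) and 5 were higher (19.0%), at a median of -0.63 beside -1.05 over all genes. Both comparisons share the DMSO library, so their values are given side by side and their likeness is not counted. With the untreated nascent library as the control in place of DMSO, both medians changed sign: 29 genes were higher and 8 lower under DRB, at a median of 0.99, and 29 higher and 10 lower under ActD, at 1.02. The medians over all genes tested were then -0.03 and -0.12. Of all genes tested against that library, 4383 of 13173 were higher at 2-fold and 4855 lower under DRB. Under ActD, 4427 of 12929 were higher and 5174 lower. Against that library the direction turned for 9 of the 26 genes counted as lower under DRB (ORC6, CDC6, GMNN, MCM10, RFC1, RFC5, RPA2, TIPIN and FEN1). Under ActD it turned for 12 of the 22 (MCM6, MCM10, RFC1, RFC3, RFC4, PRIM2, POLD3, RRM2, SLBP, E2F8, CCNE1 and CCNE2). Centred on the median gene, 10 were higher and 16 lower under DRB, and 15 higher and 11 lower under ActD. On that scale 3766 of all 12919 genes tested were higher and 4463 lower under DRB. Under ActD they were 4291 and 4422 of 12788.

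**Figure D2:**
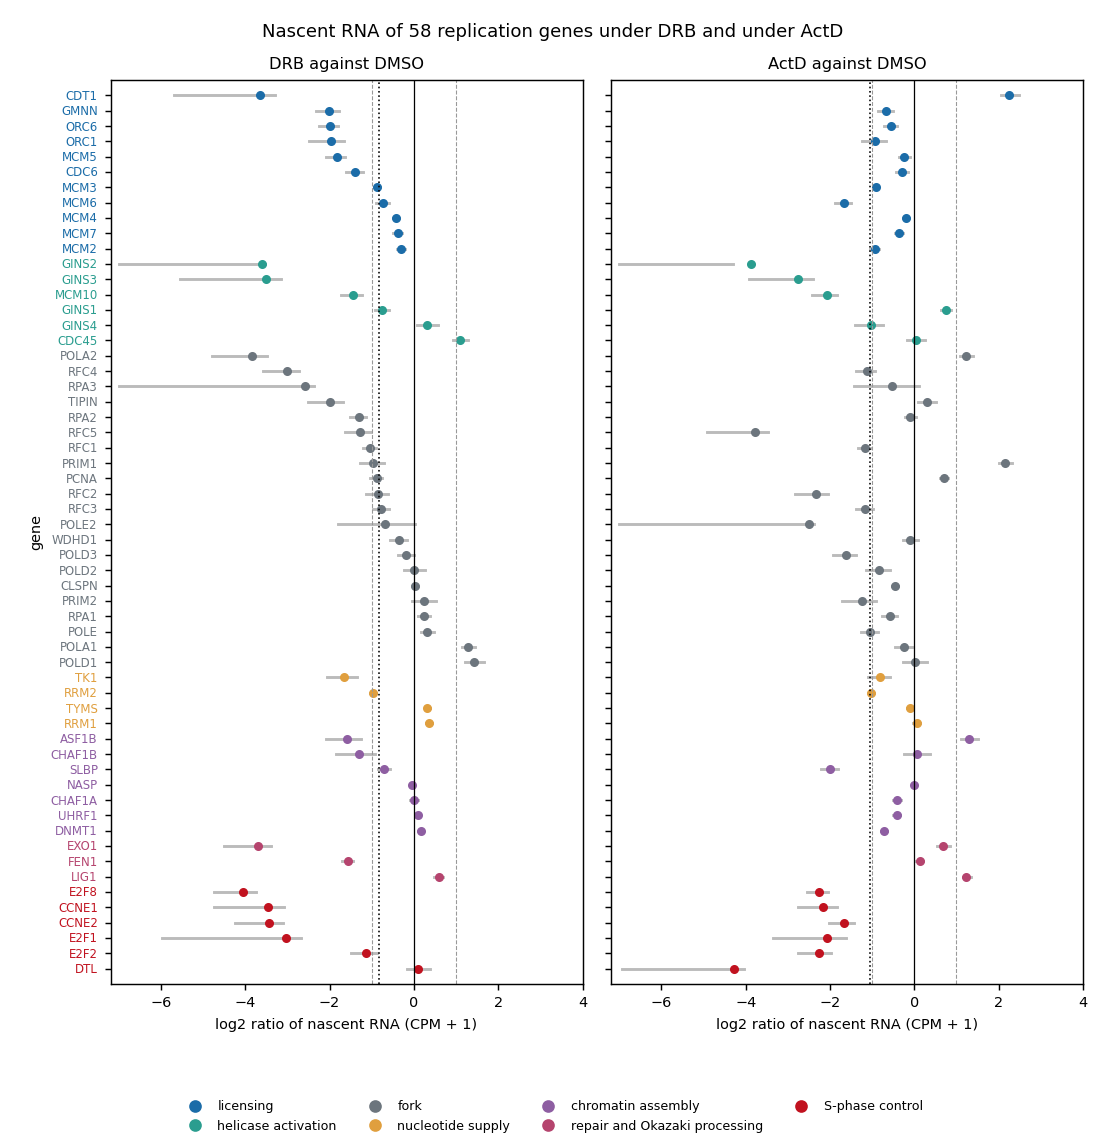
Log2 ratio of nascent RNA (CPM + 1) of each gene under DRB (left) and ActD (right) against DMSO; points are coloured by role, grey bars are 95% counting intervals (cut at the left edge), the solid line marks no difference, dashed lines 2-fold and the dotted line the median of all genes tested. The S-phase control genes lie left of the 2-fold line in both panels except DTL under DRB, while CDT1, POLA2 and EXO1 lie far left under DRB and right of 0 under ActD.

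Among the licensing genes, 6 of 11 were lower under DRB and 1 of 11 under ActD. CDT1, an MCM loader, stood at 25.3 CPM in total RNA, 27.5 in untreated nascent RNA, 29.7 under DMSO, 1.46 under DRB and 144 under ActD. Its counts were 232 with DMSO, 7 with DRB and 784 with ActD, with log2 ratios of -3.65 (interval -5.68 to -3.29) for DRB and 2.24 (interval 2.06 to 2.5) for ActD. CDT1 was thus the licensing gene furthest down under DRB and the gene furthest up of all 58 under ActD. GMNN, which binds and blocks CDT1, stood at 4.13 CPM in total RNA, 6.87 in untreated nascent RNA, 114 under DMSO, 27.7 under DRB and 71.4 under ActD, with log2 ratios of -2.01 (interval -2.32 to -1.78) and -0.67 (interval -0.86 to -0.51). CDC6, the other MCM loader, stood at 33.6 CPM in total RNA, 32.2 in untreated nascent RNA, 141 under DMSO, 53.0 under DRB and 115 under ActD, with log2 ratios of -1.40 (interval -1.62 to -1.22) and -0.29 (interval -0.44 to -0.15). The origin recognition subunits ORC1 and ORC6 were also lower under DRB, at -1.98 and -1.99, and within 2-fold under ActD, at -0.93 and -0.56.

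Of the MCM helicase subunits, MCM2 stood at 90.0 CPM in total RNA, 99.7 in untreated nascent RNA, 320.1 under DMSO, 259 under DRB and 166 under ActD, with log2 ratios of -0.31 (interval -0.41 to -0.21) under DRB and -0.94 (interval -1.06 to -0.84) under ActD. MCM5 was the subunit lower at 2-fold under DRB, at 152 CPM under DMSO, 42.0 under DRB and 129 under ActD and a log2 ratio of -1.83 (interval -2.08 to -1.64). MCM6 was the subunit lower at 2-fold under ActD, at 155 CPM under DMSO, 92.6 under DRB and 48.2 under ActD and a log2 ratio of -1.67 (interval -1.88 to -1.49). The remaining 4 subunits stayed within 2-fold of DMSO under both agents. Among them MCM4 stood at 285 CPM in total RNA, 223 in untreated nascent RNA, 685 under DMSO, 507 under DRB and 596 under ActD, with log2 ratios of -0.43 (interval -0.50 to -0.36) and -0.20 (interval -0.26 to -0.14). MCM7 stood at 261 CPM in total RNA, 233 in untreated nascent RNA, 329 under DMSO, 251 under DRB and 256 under ActD, with log2 ratios of -0.39 (interval -0.49 to -0.29) and -0.36 (interval -0.46 to -0.27). Summed over MCM2 to MCM7, nascent RNA was 2542 CPM with DMSO, 1640.4 with DRB and 1673 with ActD. The subunits act as 1 ring, yet their levels per kb under DMSO ranged from 71.9 CPM per kb for MCM5 to 1162 for MCM4. In CPM they ranged from 152 for MCM5 to 901 for MCM3. Effective length differs between libraries and moves the values per kb. MCM4 had 223 CPM and 195 CPM per kb in untreated nascent RNA, against 685 and 1162 under DMSO.

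Of the 6 helicase activation genes, 3 were lower and 1 higher under DRB, and 4 were lower under ActD. CDC45, a partner of the active helicase, stood at 53.1 CPM in total RNA, 33.6 in untreated nascent RNA, 56.2 under DMSO, 121 under DRB and 57.8 under ActD. It was higher under DRB, with a log2 ratio of 1.09 (interval 0.93 to 1.29), and level with DMSO under ActD at 0.04. GINS2 had 107 counts with DMSO, 1 with DRB and 0 with ActD. Against a floor of 3 counts it was at least 24.9-fold lower under ActD, and the interval of its log2 ratio under DRB ran from -11.36 to -3.53. GINS3 stood at 27.2 CPM under DMSO, 1.46 under DRB and 3.13 under ActD, with log2 ratios of -3.52 (interval -5.55 to -3.15) and -2.77 (interval -3.93 to -2.41). GINS1 differed from these partners in the same complex, at 136 CPM under DMSO, 80.1 under DRB and 229 under ActD and log2 ratios of -0.76 (interval -0.93 to -0.59) and 0.75 (interval 0.63 to 0.87). MCM10 was lower under both agents, at -1.45 and -2.07, and GINS4, another subunit of that complex, stood at 41.5 CPM in total RNA, 33.6 in untreated nascent RNA, 39.5 under DMSO, 49.1 under DRB and 18.9 under ActD. Its log2 ratios were 0.31 (interval 0.06 to 0.56) under DRB and -1.02 (interval -1.40 to -0.73) under ActD, where it was lower at 2-fold.

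At the fork, 7 of 21 genes were lower and 2 higher under DRB, and 9 lower and 2 higher under ActD. POLD1 had the highest ratio of all 58 genes under DRB, at 64.2 CPM in total RNA, 70.1 in untreated nascent RNA, 33.3 under DMSO, 90.7 under DRB and 33.7 under ActD and a log2 ratio of 1.42 (interval 1.22 to 1.67). Under ActD it was level with DMSO, at 0.01 (interval -0.27 to 0.29). POLA1, the catalytic subunit of polymerase alpha, stood at 57.6 CPM in total RNA, 38.9 in untreated nascent RNA, 76.2 under DMSO, 188 under DRB and 63.7 under ActD, with log2 ratios of 1.29 (interval 1.15 to 1.45) and -0.26 (interval -0.45 to -0.07). POLA2, the partner subunit in the same enzyme, went the other way: it stood at 71.0 CPM in total RNA, 48.6 in untreated nascent RNA, 79.0 under DMSO, 4.58 under DRB and 186 under ActD. Its log2 ratios were -3.84 (interval -4.79 to -3.50) under DRB and 1.22 (interval 1.09 to 1.38) under ActD. PRIM1, the catalytic subunit of primase, stood at 14.8 CPM in total RNA, 11.1 in untreated nascent RNA, 54.5 under DMSO, 27.5 under DRB and 244 under ActD, with log2 ratios of -0.96 (interval -1.28 to -0.70) and 2.14 (interval 2.01 to 2.33). PRIM2, the other primase subunit, was lower under ActD, at -1.23 (interval -1.71 to -0.90). The 4 subunits of polymerase alpha and primase thus lay on both sides of DMSO under each agent.

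PCNA, the sliding clamp, stood at 21.9 CPM in total RNA, 30.3 in untreated nascent RNA, 222 under DMSO, 119 under DRB and 363 under ActD, within 2-fold of DMSO under both agents, at -0.89 (interval -1.03 to -0.76) and 0.71 (interval 0.62 to 0.81). Of the genes of its loader, RFC4 stood at 89.7 CPM under DMSO, 10.2 under DRB and 40.5 under ActD, with log2 ratios of -3.02 (interval -3.59 to -2.72) and -1.13 (interval -1.37 to -0.93). RFC5 stood at 58.6 CPM under DMSO, 23.5 under DRB and 3.31 under ActD, with log2 ratios of -1.28 (interval -1.63 to -1.02) and -3.79 (interval -4.91 to -3.47). All 5 RFC genes were lower at 2-fold under ActD, from -3.79 in RFC5 to -1.13 in RFC4, and RFC1, RFC4 and RFC5 under DRB. RFC1 was at -1.04 under DRB, and RFC2 and RFC3, at -0.85 and -0.77, were within 2-fold there. Among the single-strand binding subunits, RPA2 was lower under DRB at -1.32, and RPA3 had 1 count under DRB and 49 under DMSO (interval of the log2 ratio -10.25 to -2.37), while RPA1 stayed within 2-fold under both agents. CLSPN stood at 83.0 CPM in total RNA, 48.9 in untreated nascent RNA, 629 under DMSO, 638 under DRB and 458 under ActD and stayed within 2-fold under both agents, at 0.02 (interval -0.05 to 0.09) and -0.46 (interval -0.53 to -0.39). POLE2 had 44 counts with DMSO, 15 with DRB and 1 with ActD, and the interval of its log2 ratio under ActD ran from -10.27 to -2.39. POLE and POLD3, subunits of polymerases epsilon and delta, were lower at 2-fold under ActD at -1.04 and -1.62.

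Of the 4 nucleotide supply genes, 1 was lower at 2-fold under DRB and 1 under ActD. RRM2, the small subunit of ribonucleotide reductase, stood at 137 CPM in total RNA, 105 in untreated nascent RNA, 954 under DMSO, 489 under DRB and 467 under ActD, with log2 ratios of -0.96 (interval -1.03 to -0.90) and -1.03 (interval -1.10 to -0.97). RRM1, the large subunit, stood at 51.0 CPM in total RNA, 38.9 in untreated nascent RNA, 447 under DMSO, 570.2 under DRB and 464 under ActD and stayed within 2-fold under both agents, at 0.35 and 0.05. TYMS stood at 198 CPM in total RNA, 180.0 in untreated nascent RNA, 656 under DMSO, 819.8 under DRB and 611 under ActD, with log2 ratios of 0.32 (interval 0.26 to 0.38) and -0.10 (interval -0.17 to -0.04). TK1, of the salvage route, was the gene of this group lower at 2-fold under DRB, at 55.6 CPM under DMSO, 17.1 under DRB and 31.3 under ActD and log2 ratios of -1.65 (interval -2.06 to -1.36) for DRB and -0.81 (interval -1.10 to -0.57) for ActD.

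Of the 7 chromatin assembly genes, 2 were lower under DRB, and under ActD 1 was lower and 1 higher. NASP, a histone chaperone, stood at 143 CPM in total RNA, 128 in untreated nascent RNA, 1162 under DMSO, 1132 under DRB and 1165 under ActD, and its log2 ratios of -0.04 (interval -0.09 to 0.01) and 0.00 (interval -0.04 to 0.05) were close to 0. DNMT1, the maintenance methyltransferase, stood at 277 CPM in total RNA, 244 in untreated nascent RNA, 786 under DMSO, 877 under DRB and 478 under ActD, with log2 ratios of 0.16 (interval 0.10 to 0.22) and -0.72 (interval -0.78 to -0.65). Per kb it was the highest of the 58 genes under DMSO, at 1392 CPM per kb, against 150 in untreated nascent RNA, with an effective length that differs between these libraries. By CPM under DMSO, NASP was the highest. UHRF1, which brings DNMT1 to new DNA, stood at 82.3 CPM in total RNA, 93.6 in untreated nascent RNA, 538 under DMSO, 570.2 under DRB and 402 under ActD, with log2 ratios of 0.08 (interval 0.01 to 0.15) and -0.42 (interval -0.50 to -0.35). These 3 genes and CHAF1A, the large subunit of the CAF-1 histone chaperone, stayed within 2-fold under both agents. ASF1B, a histone chaperone, stood at 44.1 CPM in total RNA, 24.7 in untreated nascent RNA, 38.8 under DMSO, 12.3 under DRB and 96.2 under ActD, with log2 ratios of -1.59 (interval -2.09 to -1.26) under DRB and 1.29 (interval 1.10 to 1.52) under ActD. SLBP, which binds the stem loop of histone mRNA, stood at 21.9 CPM in total RNA, 27 in untreated nascent RNA, 178 under DMSO, 109 under DRB and 44.0 under ActD, with log2 ratios of -0.71 (interval -0.86 to -0.57) and -2.00 (interval -2.23 to -1.82). CHAF1B, another CAF-1 subunit, stood at 26.9 CPM under DMSO, 10.4 under DRB and 28.3 under ActD, with log2 ratios of -1.29 (interval -1.85 to -0.92) and 0.07 (interval -0.24 to 0.38).

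Of the 3 genes of Okazaki fragment processing and repair, 2 were lower under DRB and 1 was higher under ActD. FEN1, the flap endonuclease, stood at 46.6 CPM in total RNA, 41.9 in untreated nascent RNA, 372 under DMSO, 125 under DRB and 406 under ActD, with log2 ratios of -1.57 (interval -1.71 to -1.45) and 0.12 (interval 0.04 to 0.21). EXO1 stood at 38.7 CPM in total RNA, 14.8 in untreated nascent RNA, 91.0 under DMSO, 6.03 under DRB and 148 under ActD, with log2 ratios of -3.71 (interval -4.50 to -3.38) and 0.69 (interval 0.55 to 0.84). LIG1, the ligase that joins Okazaki fragments, stood at 107 CPM in total RNA, 98.8 in untreated nascent RNA, 189.7 under DMSO, 285 under DRB and 449 under ActD, with log2 ratios of 0.59 (interval 0.48 to 0.69) and 1.24 (interval 1.15 to 1.34). Summed over the 3 genes, nascent RNA was 653 CPM with DMSO, 416 with DRB and 1002 with ActD.

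Against DMSO, the S-phase control genes had the lowest medians, at -3.23 under DRB, with 5 of 6 lower, and -2.21 under ActD, with 6 of 6 lower. CCNE1, cyclin E1, stood at 10.3 CPM in total RNA, 5.63 in untreated nascent RNA, 42.2 under DMSO, 2.91 under DRB and 8.65 under ActD, with log2 ratios of -3.46 (interval -4.74 to -3.09) and -2.16 (interval -2.76 to -1.84). CCNE2, cyclin E2, stood at 4.68 CPM in total RNA, 6.63 in untreated nascent RNA, 73.0 under DMSO, 5.82 under DRB and 22.1 under ActD, with log2 ratios of -3.44 (interval -4.25 to -3.10) and -1.68 (interval -2.02 to -1.44). E2F1, an activator E2F, had 109 counts with DMSO, 4 with DRB and 14 with ActD, with log2 ratios of -3.03 (interval -5.97 to -2.67) and -2.07 (interval -3.36 to -1.63). E2F2, another activator E2F, stood at 54.5 CPM in total RNA, 45.9 in untreated nascent RNA, 56.5 under DMSO, 25 under DRB and 11.0 under ActD, with log2 ratios of -1.15 (interval -1.48 to -0.89) and -2.26 (interval -2.77 to -1.97). E2F8 had the lowest ratio of all 58 genes under DRB. It stood at 18.7 CPM in total RNA, 13.1 in untreated nascent RNA, 141 under DMSO, 7.49 under DRB and 28.7 under ActD, with log2 ratios of -4.06 (interval -4.75 to -3.75) and -2.25 (interval -2.54 to -2.05). DTL, which marks CDT1 for destruction, parted from the others: it stood at 10.1 CPM in total RNA, 9.19 in untreated nascent RNA, 36.0 under DMSO, 38.9 under DRB and 0.92 under ActD. Its log2 ratio was 0.11 (interval -0.16 to 0.38) under DRB and -4.27 (interval -6.93 to -4.05) under ActD, where 5 counts remained of 281. Against untreated nascent RNA, CCNE1, CCNE2 and E2F8 were higher under ActD, at 0.54, 1.6 and 1.07. Under DRB, the CPM of CCNE1, CCNE2, E2F2 and E2F8 lay below untreated nascent RNA by less than 2-fold, and DTL lay above it. E2F1 stayed far lower, at 20.5 CPM untreated and 0.83 under DRB. The low DRB ratios of most of these genes thus depend on the DMSO library.

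Set directly against each other, ActD and DRB differed most at CDT1, POLA2, EXO1 and DTL. Of 55 genes tested, 21 were higher under ActD at 2-fold (34.2% of 10859 genes tested) and 12 were lower (36.3%), at a median of 0.02 beside -0.09 over all genes. CDT1 was higher under ActD with a log2 ratio of 5.89 (interval 5.58 to 7.95), POLA2 with 5.07 (interval 4.74 to 6.02), EXO1 with 4.4 (interval 4.08 to 5.20) and PRIM1 with 3.11 (interval 2.89 to 3.42). DTL was lower with -4.38 (interval -7.04 to -4.15), RFC5 with -2.51 (interval -3.63 to -2.10) and POLA1 with -1.55 (interval -1.74 to -1.38). Of the licensing genes, 6 of 11 were higher under ActD and 0 lower, at a median of 1.05, and of the fork genes 7 of 20 were higher and 7 lower.

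The ratio under DRB went with gene length. Genes spanning under 20 kb had a median log2 ratio of -1.65, with 14 of 21 lower at 2-fold, those of 20 to 50 kb had -0.85, with 8 of 21 lower, and those over 50 kb had -0.05, with 4 of 16 lower. Over the 58 genes, which share their 2 libraries, Spearman's rho between length and ratio was 0.43, and over all 10033 protein-coding genes tested it was 0.27. The same classes of protein-coding genes had medians of -1.46, -1.0 and -0.23. FEN1 spans 4.33 kb and CDT1 5.47 kb, and POLA1 spans 303 kb. The 5 S-phase control genes lower under DRB span 10.9 kb (E2F1) to 26.0 kb (E2F2), and DTL spans 69.3 kb. Role and length were not separated in that group. POLA2 and EXO1 lie outside this order, at 44.0 and 42.0 kb and ratios of -3.84 and -3.71. Under ActD rho was -0.02 for these genes and -0.13 for protein-coding genes, and the 3 length classes had medians of -0.81, -0.42 and -0.65.

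**Figure D3:**
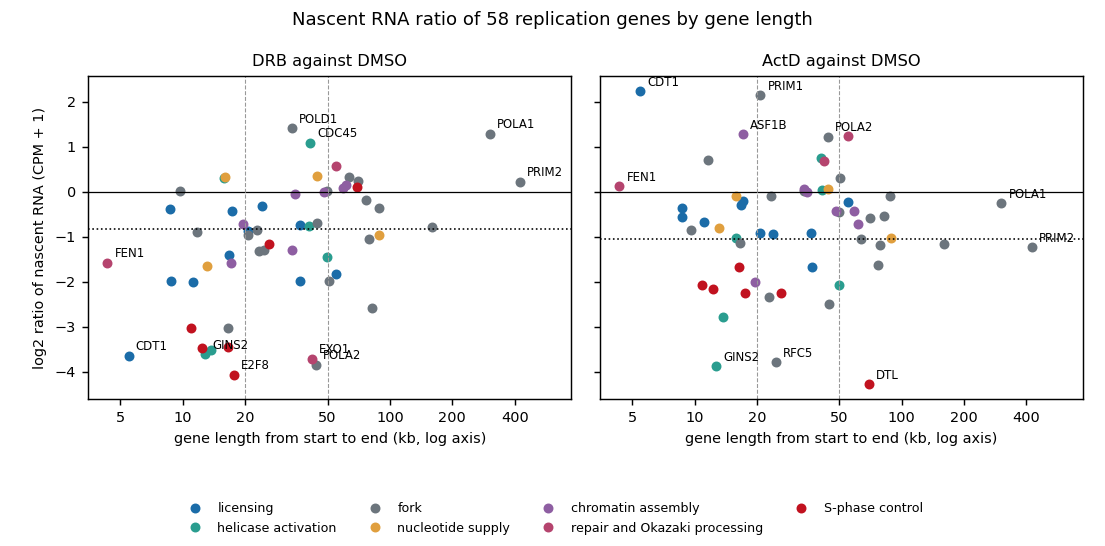
Log2 ratio of nascent RNA (CPM + 1) against DMSO by gene length (log axis) for the 58 genes under DRB (left) and ActD (right), coloured by role; vertical dashes mark 20 and 50 kb and the dotted line the median of all genes tested. Under DRB the short genes lie lower than the long ones (rho 0.43), and under ActD no such order is seen (rho -0.02).

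Other genes of the same pathways were taken from 2 further lists. Of 50 other replication genes, 49 were tested under DRB and 17 were lower and 5 higher, at a median of -0.43, from ASF1A, a histone chaperone, at -4.78 to CHTF18, a subunit of an alternative clamp loader, at 1.65. Under ActD 21 of 50 were lower and 7 higher, at a median of -0.45, with POLD4, a small subunit of polymerase delta, highest at 4.90. Of 41 genes of G2 and mitosis, 34 were lower under DRB and 0 higher, at a median of -1.86, from AURKA, a mitotic kinase, at -6.28 to MAD2L1, a spindle checkpoint protein, at -0.20. Under ActD 28 were lower and 1 higher, at a median of -1.50, from ECT2 at -5.36 to CDCA3 at 2.06. Beside these, the medians of the 58 genes were -0.88 and -0.63.

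Acetylated H2A.Z lay at nearly every start. Under DMSO all 58 genes had an acH2A.Z peak over the gene or within 1 kb of it (89.6% of 10028 expressed protein-coding genes), and 49 of the 50 genes with a listed start had one within 1 kb of the start (84.4% of 8337). The listed start of PRIM2 had no peak in any of the 5 acH2A.Z lists, but it lies 93265 bases inside the gene record. Within 1 kb of the 5′ end of that record PRIM2 held 392.7 tags with DMSO, 474.4 with DRB, 253.8 with ActD and 334.6 with siNTC, and no peak with siMyc. The listed starts of ORC1 and UHRF1 also lie inside their gene records, by 5080 and 6421 bases, and all 3 windows entered the counts of promoter words and start peaks. With the 5′ ends of the gene records in place of the listed starts, a choice made after seeing the data, 48 of the 50 genes had an acH2A.Z peak with DMSO, 48 with DRB, 43 with ActD, 46 with siNTC and 23 with siMyc. The share of expressed genes at these 5′ ends was not computed. Under DRB, 58 genes again had a peak and 49 of the listed starts did (94.6% and 89.3% of expressed genes). Under ActD they were 52 and 43 (86% and 79.5%), and E2F1, POLD1, POLD2, POLE, TK1 and UHRF1 had no peak in that list. The normalized tag count at these 6 starts under DMSO ranged from 55.5 in TK1 to 349 in POLD2, all below the median of 703 over the 49 starts. Cut to the 1271 highest-scoring peaks each, the length of the shortest ChIP list, the acH2A.Z lists reached 9 of the 58 genes with DMSO, 5 with DRB and 5 with ActD. Of expressed genes they reached 9.30%, 8.75% and 8.76%. A missing peak means that no region passed the authors' threshold there, not that the mark was absent.

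On the authors' normalized scale, tag counts were lower under DRB than under DMSO at 46 of the 49 starts with a peak in both lists, and higher at TK1, E2F1 and POLE2. Under ActD they were lower at 42 of 43 starts, and higher at RFC3. Expressed genes with a start peak in both lists also had medians below 0, at log2 ratios of -0.83 and -0.65. The share of expressed genes with lower tags was not computed. WDHD1, a scaffold of the fork, held the highest acH2A.Z value at its start, with 2806 tags under DMSO, 517 tags under DRB, 1519 tags under ActD, 142 tags with siNTC and no peak with siMyc. MCM3 followed, with 2426 tags under DMSO, 1302 tags under DRB, 2088 tags under ActD, 195 tags with siNTC and 17.0 tags with siMyc. At the starts whose sequences are printed above, POLA2 held 1158 tags under DMSO, 306 tags under DRB, 223 tags under ActD, 139 tags with siNTC and no peak with siMyc. CDT1 held 227 tags under DMSO, 98.8 tags under DRB, 35.0 tags under ActD, 262 tags with siNTC and 18.9 tags with siMyc. DTL held 1822 tags under DMSO, 425 tags under DRB, 899 tags under ActD, 45.1 tags with siNTC and 30.2 tags with siMyc, and POLD1 held 126 tags under DMSO, 107 tags under DRB, no peak under ActD, 139 tags with siNTC and no peak with siMyc. Start tags of CDT1 and POLA2 were thus lower under ActD than under DMSO, while their nascent RNA was higher.

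Over the 49 starts with a peak in both lists, the median log2 ratio of tags under DRB against DMSO was -1.21, beside -0.83 over 6943 expressed genes, and 30 starts were lower and 1 higher at 2-fold. The lowest was RFC5 at -2.52 and the highest TK1 at 2.68, where tags went from 55.5 to 356. Under ActD against the same DMSO list the median was -1.37 over 43 starts, beside -0.65 over 6402 expressed genes, and 25 starts were lower and 0 higher. E2F2 was lowest at -4.83, from 402 to 14.1 tags, and RFC3 highest at 0.09. For tags, the share of expressed genes past 2-fold was not computed, so the counts of starts past 2-fold have no background beside them. Across these genes the ratio of start tags and the ratio of nascent RNA were not ordered alike, with a Spearman's rho of -0.04 over 49 genes under DRB and -0.05 over 43 under ActD. By score within its list, the leading acH2A.Z peaks lay at MCM10, TYMS and RFC5 under DMSO, at RPA2, POLA2 and CCNE1 under DRB, and at DNMT1, TIPIN and POLD3 under ActD. The highest-scoring peak of each gene had a median width of 3069 bases with DMSO, 2218 with DRB and 2602 with ActD.

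**Figure D4:**
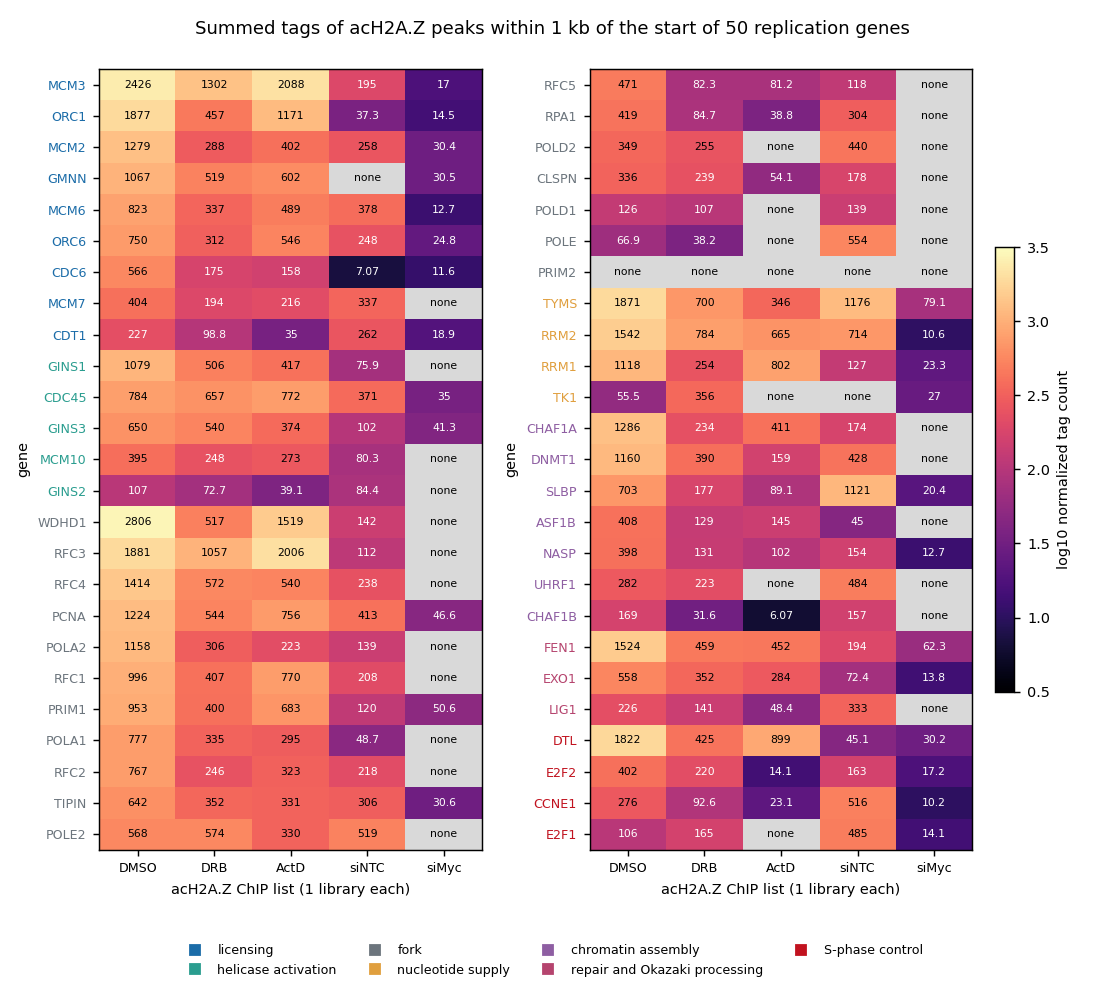
Summed normalized tag counts of acH2A.Z peaks within 1 kb of the start of 50 genes (rows, coloured by role) in 5 ChIP lists; colour is on a log10 scale and grey marks no peak. Of 49 starts, 30 hold fewer tags under DRB than under DMSO at 2-fold, where the median log2 ratio over expressed genes is also below 0, at -0.83. The share of expressed genes past 2-fold was not computed. In the siMyc list 25 of the 50 starts have a peak (47.5% of expressed genes).

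In the full list of the cells labelled siMyc, fewer of these genes had an acH2A.Z peak than in that of siNTC. With siNTC 56 of 58 genes had a peak (91.6% of expressed genes) and with siMyc 33 (58%), and at the start the counts were 47 and 25 of 50 (86.2% and 47.5%). The drop in the count was of the order seen over expressed genes. The full lists held 17353 peaks with siNTC and 14528 with siMyc. Cut to the 1271 highest-scoring peaks, both lists reached 7 of the 58 genes (11.3% and 10.4% of expressed genes). So short a cut reaches few genes in either list and cannot decide whether the full lists differ here. At a fold of at least 8, 30 genes had a peak with siNTC and 6 with siMyc (54.8% and 17.2% of expressed genes). In the full lists, GMNN and TK1 had a peak with siMyc and none with siNTC, and 25 genes the reverse. Of 10028 expressed genes, 129 had a peak with siMyc only and 3494 with siNTC only. By role, 4 of 4 S-phase control genes, 4 of 4 nucleotide supply genes and 8 of 9 licensing genes with a listed start had a start peak in the siMyc list, against 3 of 18 fork genes and 2 of 7 chromatin assembly genes. With siNTC the same groups, in that order, had 4, 3, 8, 17 and 7. Over the 23 starts with a peak in both lists the median log2 ratio of tags was -3.32, beside -3.02 over 3856 expressed genes. RRM2 was lowest, with 1542 tags under DMSO, 784 tags under DRB, 665 tags under ActD, 714 tags with siNTC and 10.6 tags with siMyc. CDC6 was highest at 0.71, with 566 tags under DMSO, 175 tags under DRB, 158 tags under ActD, 7.07 tags with siNTC and 11.6 tags with siMyc. The siMyc list has its control tags scaled to the immunoprecipitation and the siNTC list has the reverse. The scale of the normalized tag counts compared here is not stated. Scaling and knockdown thus cannot be told apart in these tag counts.

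**Figure D5:**
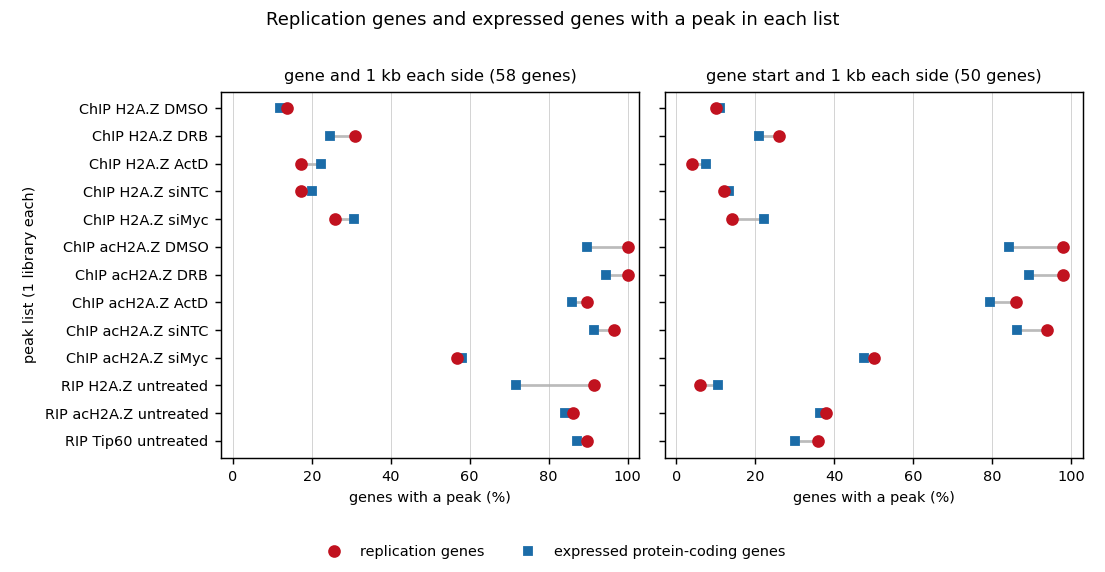
Share of the replication genes (red circles) and of expressed protein-coding genes (blue squares) with a peak in each of 13 lists, over the gene and 1 kb on each side (left) and over the start and 1 kb on each side (right). The acH2A.Z ChIP lists cover nearly all genes except with siMyc (33 of 58), and the RIP lists cover most genes but fewer starts (3, 19 and 18 of 50).

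Peaks of the antibody to H2A.Z as a whole were few at these genes. Under DMSO 8 of 58 had a peak (12.0% of expressed genes), under DRB 18 (24.7%), under ActD 10 (22.3%), with siNTC 10 (20.1%) and with siMyc 15 (30.6%). At the start the counts of 50 were 5, 13, 2, 6 and 7 (11.1%, 20.9%, 7.6%, 13.4% and 22.1%). RPA2 was the gene with a peak in all 5 H2A.Z and all 5 acH2A.Z lists. With siRNA, E2F1 had the largest H2A.Z value at a start in both lists, with 208 tags with siNTC and 304 with siMyc. POLE followed with siNTC at 128 tags, and CCNE1 stood at 121 with siNTC and 261 with siMyc. Neither E2F1 nor CCNE1 had an H2A.Z peak at its start under DMSO, DRB or ActD. Under DMSO the values ran from 24.4 tags in PRIM1 to 31.5 in NASP. These lists held 1271 to 17888 peaks, and the longest, under ActD, reached 10 of the genes. Cut to the 1271 highest-scoring peaks each, they reached 8 genes with DMSO, 6 with DRB, 2 with ActD, 5 with siNTC and 2 with siMyc. Of expressed genes these cut lists reached 12.0%, 7.91%, 4.29%, 9.63% and 9.66%. The order of the counts turned for DRB against DMSO, ActD against DMSO and siMyc against siNTC. The cut left the DMSO list whole and the counts are small, so neither order is settled.

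RIP peaks of all 3 antibodies lay on most of these genes in untreated cells. H2A.Z peaks lay on 53 of 58 genes (71.8% of expressed genes), acH2A.Z peaks on 50 (84.1%) and Tip60 peaks on 52 (87.3%). At the start they lay on 3, 19 and 18 of 50 (10.5%, 36.5% and 30.1%). Gene length moved with this share: for H2A.Z, 18 of 21 genes under 20 kb, 19 of 21 of 20 to 50 kb and 16 of 16 over 50 kb had a peak, against 43.0%, 78.3% and 95.1% of expressed genes in the same classes. For Tip60 the counts were 16, 20 and 16, against 70.0%, 93.8% and 99.1%. PRIM2, the longest gene at 425 kb, carried 18 H2A.Z, 32 acH2A.Z and 31 Tip60 peaks. RFC3 carried 5, 10 and 21, and RRM2 13, 6 and 16. By score within its list, the leading Tip60 peaks lay in RRM2, UHRF1 and DNMT1, the leading acH2A.Z peaks in PRIM2, CDC45 and POLE, and the leading H2A.Z peaks in POLA2, GINS1 and ASF1B. CDT1 carried no RIP peak of any of the 3 antibodies. The IgG libraries were not analysed here.

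In the input DNA of the ChIP experiments the 58 genes together held 606 counts with DMSO, 615 with DRB and 660 with ActD. These were 0.144%, 0.151% and 0.150% of counts, with intervals of 0.133% to 0.156%, 0.139% to 0.163% and 0.139% to 0.162% that overlap. Within them the S-phase control genes held 32 counts (0.00759%, interval 0.00519% to 0.0107%) under DMSO, 49 under DRB and 84 (0.0191%, interval 0.0152% to 0.0236%) under ActD, so their input went the other way from their nascent RNA under ActD, and its part in that result was not tested. Of these genes, E2F2 held 6 input counts with DMSO, 13 with DRB and 28 with ActD, and E2F1 held 1, 7 and 11. The counting interval of the log2 ratio under ActD was 0.86 to 3.72 for E2F2 and 0.62 to 8.83 for E2F1. The nucleotide supply genes held 55 input counts with DMSO, 35 with DRB and 33 with ActD, of which RRM2 held 37, 20 and 18. Over the 58 genes the interval under ActD lay above 0 for 3 (MCM4, E2F1 and E2F2) and below 0 for 3 (POLA1, POLE and RRM2). Under DRB it lay above 0 for MCM3 and POLE2 and below 0 for RRM2 and FEN1. The median gene held 8 to 10 input counts, and the share over all genes was not computed, so these counts have no background beside them.

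Some values are uncertain for reasons of gene position. Reads of ORC1 and PRPF38A, MCM7 and AP4M1, GINS2 and GSE1, RFC5 and WSB2, PRIM2 and RAB23, RPA3 and UMAD1, TYMS and ENOSF1, CHAF1A and UBXN6, UHRF1 and ARRDC5, and CCNE2 with INTS8 and NDUFAF6 could be shared, because these genes overlap and the sources used here do not state whether counting used strand. The same holds for PCNA and its antisense gene PCNA-AS1. PCNA has 4 pseudogenes listed by name, RPA2 and RRM2 have 3 each, and RPA3, TIPIN and TYMS 2 each, which reads may also match.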

How the data were processed

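RNA was measured in 5 libraries, input DNA in 3, and peaks in 13 lists, from 1 library each. The gene tables hold expected counts as the authors deposited them; 3 of them pack other fields, separated by spaces, into 1 column, per the file headers. Per the submitters' processing notes, the tools included cutadapt, HOMER, FastQC, STAR 2.5.2b and Trim Galore, with no role or order given, and the build was GRCh38. The sources used here do not give the counting tool, the annotation or the use of strand. The deposited peak lists give, per the file headers, a normalized tag count (a signal), a score, a p-value and a fold over control for each peak, which are the authors' own and served only to describe or rank peaks. All deposited peaks had a fold of at least 4. Which control library was used, and the scale of the tags, is not stated there.

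CPM was the expected count per 1e6 counts without mitochondrially encoded genes. Log2 ratios were taken of CPM + 1, for genes whose mean reached 1 CPM and whose counts summed to 20 or more, and a gene counted as higher or lower past 2-fold. Intervals were exact 95% binomial intervals. Expressed protein-coding genes are those of chromosomes other than Y that passed this filter for DRB against DMSO. A peak counted for a gene where it overlapped the gene or 1 kb on either side by 1 base or more, with coordinates from RefSeq GRCh38.p14, in which all 58 genes were matched by symbol. Start tags sum all peaks within 1 kb of the start, for the 50 genes with a listed promoter, at the first one listed. Values were given for the 2 highest and 2 lowest genes of each role and for a set of well-known genes, and for peaks the 3 highest scores of a list. The genes, lists and rules were chosen with earlier results of these data known. Ratios and their intervals were tested on simulated data with counting noise only, for genes at 20 CPM or more under DMSO. Genes at lower levels and differences between libraries were not tested in this way. The peak overlaps of the 58 genes were checked against a plain comparison on the real lists. Alternatives were other totals, centring, pseudocounts, filters and control library, and for peaks a start window, a fold of 8 and equal list lengths, with the 5′ end of the gene record added after seeing the data. Python 3.11.15, numpy 2.4.6, pandas 2.3.3, scipy 1.17.1 and matplotlib 3.10.9 were used.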

Additional observations from a re-analysis of the deposited data

How the results depend on the processing

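Of the alternative values of the counts of genes, 68 stayed within 1.5 times the reported count and 48 did not; the cause was not tested. With CPM over all genes, 0 genes were higher under DRB and 2 under ActD, 7 were lower under ActD than under DRB, and 5 were lower under DMSO than in untreated nascent RNA. Over all genes tested these were 1179 of 12252, 1933 of 12149, 3190 of 10430 and 3358 of 13714. Without mitochondrial, ribosomal and RNA polymerase III genes, 2 were higher and 2 lower in nascent than in total RNA, and 23 higher and 6 lower under DMSO than untreated. Here all genes tested gave 2539 and 2196 of 15325, and 2977 and 4896 of 15146. Centred on the median gene, 10 were higher and 16 lower under DRB, 15 higher and 11 lower under ActD, 2 higher and 1 lower in nascent than in total RNA, and 6 lower under DMSO than untreated. In that order, all genes tested gave 3766 and 4463 of 12919, 4291 and 4422 of 12788, 1853 and 1438 of 13968, and 3745 of 14252. With a mean of at least 5 CPM, 0 were higher in nascent than in total RNA, beside 463 of all 9763 genes tested. With the untreated nascent library as control, 29 were higher and 8 lower under DRB, and 29 higher and 10 lower under ActD. All genes tested gave 4383 and 4855 of 13173, and 4427 and 5174 of 12929.

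With that control, genes called lower against DMSO were above it under DRB: ORC6 at 0.49, CDC6 at 0.70, GMNN at 1.86, MCM10 at 0.98, RFC1 at 1.36, RFC5 at 0.74, RPA2 at 1.01, TIPIN at 0.80 and FEN1 at 1.55. Under ActD these were MCM6 at 0.0885, MCM10 at 0.36, RFC1 at 1.23, RFC3 at 2.06, RFC4 at 0.54, PRIM2 at 0.23, POLD3 at 0.45, RRM2 at 2.13, SLBP at 0.68, E2F8 at 1.07, CCNE1 at 0.54 and CCNE2 at 1.6. Centring put GINS4 at 0.0263, POLE at 0.0037 and RRM2 at 0.0175 under ActD. Without mitochondrial, ribosomal and RNA polymerase III genes, MCM5 was at -0.0621 under DMSO against untreated.

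Within 1 kb of the start, H2A.Z ChIP peaks lay on 5 genes under DMSO, 2 under ActD, 6 with siNTC and 7 with siMyc, and RIP peaks on 3 for H2A.Z, 19 for acH2A.Z and 18 for Tip60. Within 1 kb of the 5′ end of the gene record, chosen after seeing the data, these counts were 4, 2, 6 and 6, and 4, 18 and 18. The share of expressed genes with a peak at that end was not computed. At a fold of at least 8, H2A.Z ChIP peaks lay on 1 gene with siNTC and 3 with siMyc (4.19% and 6.81% of expressed genes). At that fold acH2A.Z ChIP peaks lay on 30 with siNTC and 6 with siMyc (54.8% and 17.2%), and H2A.Z RIP peaks on 34 (49.7%). With lists of equal length, H2A.Z ChIP peaks lay on 6 under DRB, 2 under ActD, 5 with siNTC and 2 with siMyc, and acH2A.Z peaks on 9 under DMSO, 5 under DRB, 5 under ActD, 7 with siNTC and 7 with siMyc. No paired analysis was possible because each group had 1 library, so there were no shared replicate numbers and no test. Counts under 10 limit the ratios of GINS2, GINS3, POLE2, RPA3, CDT1, E2F1 and DTL in at least 1 library.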
